A study of Mus musculus with 24 samples.

Results

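The genes described here are 7 genes of the Nodal pathway, chosen by name as the ligands Nodal and Gdf3, the coreceptor Tdgf1 (Cripto), the transcription factor Foxh1, the secreted inhibitors Lefty1 and Lefty2, and Pmepa1. They are 7 of the 19938 genes that could be named on the arrays, and each was read by 1 probe set. Their mean signal over all arrays lay between the 53.0th percentile of all genes (Lefty1) and the 97.7th (Tdgf1). Signals are on the log2 scale, where a difference of 1 is 2-fold.

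RNA came from embryoid bodies (EBs), floating aggregates that differentiate on their own, of 46C, a mouse embryonic stem cell line with a fluorescent reporter at Sox1. The treated EBs received FK506 at 100 ng/ml and cyclosporin A at 1 ug/ml, both inhibitors of the phosphatase calcineurin, between day 3 and day 8, and the untreated EBs received neither. Both arms were sampled at days 4, 6, 8 and 12, which gives 8 groups of 3 arrays from 3 independent experiments. All groups shared the same culture steps, including serum-free medium from day 8, so the day 12 EBs were collected after the drugs and the serum had been withdrawn, and all come from 1 cell line.

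Nodal is a secreted ligand of the TGF-beta family. It binds activin receptors together with an EGF-CFC coreceptor such as Tdgf1, and the receptors phosphorylate Smad2 and Smad3, which enter the nucleus with Smad4 and bind target genes with Foxh1. Nodal, Lefty1, Lefty2 and Pmepa1 are themselves targets of the pathway; the Lefty proteins block the ligand and its coreceptor outside the cell and Pmepa1 holds back the Smads inside it. In the early embryo Nodal keeps the epiblast from turning neural and patterns the primitive streak, and in embryonic stem cells several of these genes mark the undifferentiated state.

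RefSeq promoter sequences on build GRCm38.p6, from 250 bases before to 50 bases after the start site, were at hand for 2 of the 7 genes, Nodal and Tdgf1. They are shown 5′ to 3′ on the strand of the gene, and capitals mark the motif matches. Both genes were lower at day 12 than at day 4 in both arms, as were Gdf3, Foxh1, Lefty1 and Lefty2.
Nodal, chr10:61417722-61418021, plus strand: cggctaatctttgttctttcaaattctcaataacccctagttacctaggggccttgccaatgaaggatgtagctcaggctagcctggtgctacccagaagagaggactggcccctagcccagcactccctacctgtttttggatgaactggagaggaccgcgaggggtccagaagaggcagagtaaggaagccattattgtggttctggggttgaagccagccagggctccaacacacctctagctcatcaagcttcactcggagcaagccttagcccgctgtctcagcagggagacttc
Tdgf1, chr9:110946109-110946408, minus strand: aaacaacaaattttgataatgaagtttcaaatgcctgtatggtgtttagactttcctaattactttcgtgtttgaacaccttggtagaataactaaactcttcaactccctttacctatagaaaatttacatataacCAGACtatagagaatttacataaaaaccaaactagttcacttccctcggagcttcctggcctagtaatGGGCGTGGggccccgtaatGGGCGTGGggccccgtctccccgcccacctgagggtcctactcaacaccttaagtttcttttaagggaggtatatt
In all, 5 motif strings were searched on both strands: AATCCACA, a FOXH1 site, found in 0.855% of 32851 RefSeq mouse promoters of this length; GTCTAGAC, the SMAD palindrome (0.213%); ATGCAAAT, the POU octamer (1.74%); CAGAC, the short SMAD box (49.6%); and GGGCGTGG, a KLF and Sp box (5.33%), which was added after the sequences had been read. The Nodal window held none of them. The Tdgf1 window held CAGAC at -113 and GGGCGTGG at -45 and -26, counted in bases from the start site, both copies of the latter inside a 21-base stretch that occurs in direct repeat 19 bases apart. The longest repeat in the Nodal window was 9 bases. The windows also differed in base composition, with 54.0% G and C for Nodal and 41.7% for Tdgf1. These matches describe the letters of the windows, and binding was not measured.

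The array medians lay between 7.80 and 7.88, and no array duplicated another (the smallest SD of the difference between 2 arrays over all probe sets was 0.175). The labels were set against markers: the mean signal of 12 pluripotent cell markers was 11.28 to 11.45 on the day 4 arrays and 8.51 to 9.32 on the day 12 arrays, while the mean of 9 neural markers was 7.63 to 7.70 at day 4 and 8.28 to 9.63 at day 12. The treated day 8 arrays were spread, and replicate 2 lay farthest out. Over all genes, it differed from the mean of the other 2 treated day 8 arrays with an SD of 0.256. The other 23 arrays had 0.115 to 0.222 in their own groups, and the 0.222 was that of treated day 8 replicate 1. The pluripotent marker mean of replicate 2 was 10.64, against 9.65 and 10.02 on the other treated day 8 arrays. The untreated day 8 arrays had 10.39 to 10.60. On replicate 2 each of the 7 genes lay within or above the untreated day 8 range. The members' day 8 differences and treated steps, and the marker counts at day 8, are therefore also given without it, a choice made after its values were seen.

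The members are taken in the order of their roles, with the array values of replicates 1, 2 and 3 in that order. Nodal, the ligand, read 10.64, 10.67 and 10.69 in untreated EBs at day 4, 10.15, 10.25 and 10.15 at day 6, 9.44, 10.06 and 9.69 at day 8, and 7.62, 7.75 and 7.77 at day 12. In treated EBs it read 10.71, 10.82 and 10.69 at day 4, 9.97, 10.50 and 10.00 at day 6, 9.03, 9.94 and 9.20 at day 8, and 8.03, 8.30 and 8.15 at day 12. The arms overlapped at days 4, 6 and 8, and at day 12 every treated array lay above every untreated one. Nodal fell at each step in both arms. The untreated steps were -0.48 ± 0.17 (SE) from day 4 to 6 (adjusted p = 0.03), -0.45 ± 0.17 from day 6 to 8 (adjusted p = 0.0458) and -2.02 ± 0.17 from day 8 to 12 (adjusted p = 6.94e-09), so the last step, a 4.05-fold fall, was the largest of the 3. The treated steps were -0.58 (adjusted p = 0.0104), -0.77 (adjusted p = 0.00122) and -1.23 (adjusted p = 9.09e-06). In bulk RNA such as this, fewer cells that make a transcript and less of it per cell cannot be told apart. The early calls were near the threshold: the untreated day 4 to 6 call was lost without any 1 of 5 of the 6 arrays compared (adjusted p 0.0636 to 0.0764) and kept only without untreated day 6 replicate 2, the untreated day 6 to 8 call was lost without any but untreated day 8 replicate 2 (0.0749 to 0.239), and the treated day 4 to 6 call without treated day 6 replicate 1 (0.0538) or 3 (0.0512).

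Gdf3, a second ligand of the family that also uses Tdgf1, read 10.66, 10.75 and 10.65 in untreated EBs at day 4, 9.56, 9.84 and 9.66 at day 6, 9.07, 9.05 and 8.61 at day 8, and 7.84, 7.22 and 7.13 at day 12. In treated EBs the values were 10.97, 10.67 and 10.64, then 9.27, 9.68 and 9.38, then 8.12, 9.14 and 8.40, and at day 12 7.62, 8.11 and 7.89. The arms overlapped at every day, and untreated day 12 replicate 1 lay above 1 of the treated arrays. Gdf3 fell at each step in both arms, by 1.00 ± 0.21 (adjusted p = 0.00065), 0.78 (0.00641) and 1.51 (4.63e-06) in untreated EBs. In treated EBs it fell by 1.32 (adjusted p = 4e-05), 0.89 (0.00149) and 0.68 (0.0135). The last treated step lost its call without treated day 8 replicate 2 (-0.39, adjusted p = 0.136) or treated day 12 replicate 1 (-0.55, adjusted p = 0.0786).

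Tdgf1, the coreceptor, had the highest mean percentile of the 7. It read 13.28, 13.30 and 13.27 in untreated EBs at day 4, 13.05, 13.01 and 13.02 at day 6, 12.04, 12.55 and 12.28 at day 8, and 9.29, 9.95 and 9.60 at day 12. The treated arrays read 13.08, 13.27 and 13.32, then 12.93, 13.20 and 13.09, then 10.55, 12.54 and 11.69, and at day 12 10.28, 10.72 and 10.15. The treated day 8 arrays were the most spread, with replicate 2 at the untreated level and the other 2 below every untreated array, and the treated day 12 arrays lay above all untreated ones. The step from day 4 to 6 did not pass the test in either arm (-0.26 ± 0.29, adjusted p = 0.487, and -0.15 ± 0.29, adjusted p = 0.683). Tdgf1 then fell by 0.73 from day 6 to 8 in untreated EBs (adjusted p = 0.0494) and by 1.48 in treated ones (adjusted p = 0.000278). From day 8 to 12 it fell by 2.68, or 6.41-fold, in untreated EBs (adjusted p = 1.53e-07) and by 1.21 in treated ones (adjusted p = 0.00206). The untreated day 6 to 8 call was at the threshold: it was lost without any 1 of the 6 arrays except untreated day 8 replicate 2 (adjusted p 0.0892 to 0.174).

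Foxh1, the nuclear partner of the Smads, had another course. It read 10.51, 10.43 and 10.61 in untreated EBs at day 4, 10.94, 10.80 and 10.87 at day 6, 10.96, 10.85 and 11.16 at day 8, and 7.79, 7.92 and 7.54 at day 12. In treated EBs it read 10.80, 10.44 and 10.53, then 11.45, 10.90 and 11.11, then 10.40, 11.06 and 10.63, and at day 12 8.20, 8.40 and 8.07. In the untreated arm every day 8 array lay above every day 4 array, and at day 12 the arms did not overlap. The untreated steps from day 4 to 6 (0.35 ± 0.15, adjusted p = 0.0626) and from day 6 to 8 (0.12, adjusted p = 0.545) did not pass, and the step from day 8 to 12 was a 9.46-fold fall (-3.24, adjusted p = 6.56e-13), the largest step of any member in the untreated arm. In treated EBs Foxh1 rose by 0.56 from day 4 to 6 (adjusted p = 0.00463), fell by 0.46 to day 8 (adjusted p = 0.0175) and fell by 2.47 to day 12 (adjusted p = 6.6e-11). The treated fall to day 8 lost its call without treated day 6 replicate 1 (-0.31, adjusted p = 0.126), treated day 8 replicate 1 (-0.31, 0.133) or treated day 8 replicate 3 (-0.42, 0.0598).

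Lefty1, a secreted inhibitor that the pathway switches on, read 10.53, 10.58 and 10.87 in untreated EBs at day 4, 8.69, 8.89 and 8.68 at day 6, 8.31, 8.62 and 8.44 at day 8, and 6.50, 5.66 and 5.88 at day 12. The treated arrays read 10.81, 10.78 and 10.87, then 8.53, 8.80 and 8.38, then 7.15, 8.33 and 7.33, and at day 12 6.84, 6.62 and 6.79. Treated day 8 replicates 1 and 3 lay below every untreated array and replicate 2 just inside their range, whereas all treated day 12 arrays lay above the untreated ones. Lefty1 fell 3.76-fold from day 4 to 6 in untreated EBs (-1.91 ± 0.22, adjusted p = 8.42e-07) and 4.74-fold in treated ones (-2.25, adjusted p = 7.98e-08). From day 6 to 8 the untreated step of -0.30 did not pass (adjusted p = 0.292), and treated EBs fell by 0.97 (adjusted p = 0.00105). From day 8 to 12 untreated EBs fell by 2.45 (adjusted p = 1.04e-08) and treated EBs by 0.85 (adjusted p = 0.00375).

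Lefty2, the second Lefty inhibitor, lies beside Lefty1 on chromosome 1. It read 10.20, 10.31 and 10.60 in untreated EBs at day 4, 8.68, 8.64 and 8.79 at day 6, 8.46, 8.97 and 8.64 at day 8, and 6.43, 6.01 and 6.13 at day 12. In treated EBs it read 10.38, 10.39 and 10.49, then 8.53, 9.55 and 8.78, then 7.43, 9.05 and 8.00, and at day 12 6.47, 6.66 and 6.84. Treated replicate 2 was the highest of its group at both day 6 and day 8, and at day 12 the lowest treated array was just above the highest untreated one. Lefty2 fell by 1.67 ± 0.27 from day 4 to 6 in untreated EBs (adjusted p = 6.01e-05) and by 1.46 in treated ones (adjusted p = 0.000226). The untreated arm then differed by -0.01 between days 6 and 8 (95% interval -0.57 to 0.55, adjusted p = 0.976) and fell by 2.50 to day 12 (adjusted p = 1.95e-07). The treated arm fell by 0.80 from day 6 to 8 (adjusted p = 0.0217) and by 1.50 to day 12 (adjusted p = 0.000154). The treated day 6 to 8 call was lost without treated day 6 replicate 2 (-0.50, adjusted p = 0.161), treated day 8 replicate 1 (-0.43, 0.197) or treated day 8 replicate 3 (-0.72, 0.0767). Lefty1 and Lefty2 are close paralogs, and whether a probe set of one also reads the other was not tested.

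Pmepa1, a membrane protein that binds Smads and damps TGF-beta signals, moved least. It read 9.86, 9.79 and 9.90 in untreated EBs at day 4, 10.17, 10.21 and 10.18 at day 6, 9.97, 10.25 and 10.21 at day 8, and 10.00, 9.65 and 9.68 at day 12. The treated arrays read 10.07, 9.87 and 10.01, then 10.14, 10.33 and 10.08, then 10.45, 10.31 and 10.36, and at day 12 10.62, 10.16 and 10.55. The treated arrays lay above all untreated ones at day 8 and at day 12. Its 8 group means spanned 0.67, against 3.03 (Nodal) to 4.81 (Lefty1) for the other 6 members. In untreated EBs it rose by 0.34 ± 0.11 from day 4 to 6 (adjusted p = 0.0175) and fell by 0.37 from day 8 to 12 (adjusted p = 0.0106). The 3 treated steps of 0.20, 0.19 and 0.07 did not pass (adjusted p 0.143, 0.172 and 0.693). With quantile normalization the untreated rise was 0.19 (adjusted p = 0.194), and it was also lost without untreated day 4 replicate 2 (0.0587) or untreated day 6 replicate 2 (0.0511). The untreated fall was lost without untreated day 8 replicate 2 (0.057), untreated day 12 replicate 2 (0.0612) or untreated day 12 replicate 3 (0.0506).

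**Figure D1:**
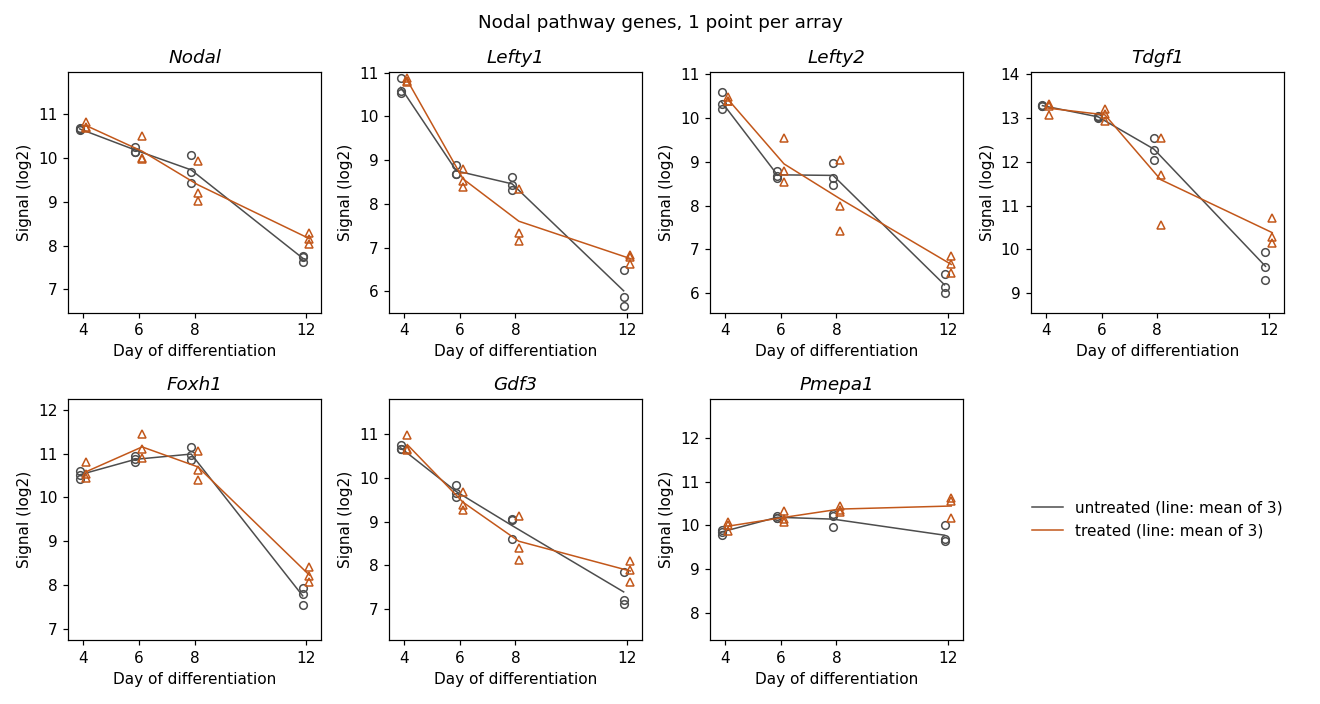
Log2 signal of the 7 genes against the day of differentiation, with 1 point per array (circles untreated, triangles treated), lines through the means of 3 arrays and the same height of axis in every panel. Nodal, Gdf3, Tdgf1, Foxh1 and both Lefty genes fall from day 4 to day 12, with the Foxh1 means at day 8 (10.99 untreated and 10.70 treated) above those at day 4 (10.52 and 10.59), while the group means of Pmepa1 span 0.67; at day 8 treated replicate 2 of Tdgf1, Lefty1 and Lefty2 lies with the untreated ones.

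Counted over the members, 4 of 7 fell and 1 rose from day 4 to 6 in untreated EBs, where 20.9% of all genes fell and 21.1% rose. From day 6 to 8, 3 of 7 fell and none rose (all genes 18.3% and 17.8%), and from day 8 to 12 all 7 fell and none rose (all genes 19.9% and 18.8%). In treated EBs 4 of 7 fell and 1 rose from day 4 to 6 (all genes 25.1% and 19.1%), 6 fell and none rose from day 6 to 8 (24.7% and 16.8%), and 6 fell and none rose from day 8 to 12 (16.7% and 16.5%). Without treated day 8 replicate 2, 6 fell from day 6 to 8 (all genes 24.8% fell and 16.7% rose) and 5 from day 8 to 12 (13.9% and 14.4%), where Gdf3 was the one lost. The treated day 6 to 8 steps were then -1.04 for Nodal, -1.95 for Tdgf1, -0.64 for Foxh1, -1.33 for Lefty1, -1.24 for Lefty2 and -1.19 for Gdf3. The treated day 8 to 12 steps were then -0.96 for Nodal, -0.74 for Tdgf1, -2.29 for Foxh1, -0.49 for Lefty1 and -1.06 for Lefty2, each still past the threshold (adjusted p up to 0.0352). The treated day 8 to 12 steps were larger without treated day 8 replicate 1, at -1.73 for Tdgf1 and -1.08 for Lefty1. The median step of the members from day 8 to 12 was -2.45 in untreated and -1.21 in treated EBs, beside -0.06 and 0.01 over all genes. In the order of the 8 group means, the day 4 groups came first for Nodal, Lefty1, Lefty2, Tdgf1 and Gdf3, and for all 6 members other than Pmepa1 treated day 12 was seventh and untreated day 12 eighth. Those last 2 groups did not overlap for Nodal, Lefty1, Lefty2, Tdgf1 and Foxh1 and overlapped for Gdf3. Between day 6 and day 8 most neighbours in the order overlapped: for Nodal, Lefty1 and Lefty2 the 4 groups of those days each overlapped the next. For Pmepa1 the order began with treated day 12 (10.44 ± 0.25) and treated day 8 (10.37 ± 0.07) and ended with untreated day 12 (9.78 ± 0.20).

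The treated and untreated arms were then compared within each day. At day 4, after 1 day of drug, no member passed the test, and the differences lay between -0.06 (Tdgf1) and 0.16 (Lefty1), with adjusted p of 0.891 or more in limma, and none was under 0.05 before adjustment. Of all genes 0.00502% were higher and 0% lower at that day. At day 6 again no member passed. The differences ran from -0.24 (Gdf3, 95% interval -0.67 to 0.19) to 0.29 (Foxh1, -0.02 to 0.60), with adjusted p from 0.462 to 0.997 and again none under 0.05 before adjustment, while 1.26% of all genes were higher and 0.577% lower. Lefty1 and Lefty2 differed by -0.18 and 0.25 at that day, neither beyond the spread between arrays.

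At day 8 Lefty1 was lower in treated EBs, by 0.85 ± 0.22 or 1.81-fold (7.60 ± 0.63 against 8.46 ± 0.15, mean ± SD, n = 3; adjusted p = 0.0165). It was the only member to pass, 1 of 7 lower and none higher, where 4.08% of all genes were lower and 4.86% higher. The other differences were -0.70 ± 0.29 for Tdgf1 (adjusted p = 0.132), -0.53 ± 0.27 for Lefty2 (0.233), -0.36 ± 0.21 for Gdf3 (0.306), -0.34 ± 0.17 for Nodal (0.235), -0.29 ± 0.15 for Foxh1 (0.238) and 0.23 ± 0.11 for Pmepa1 (0.207). The median member difference was -0.36, beside -0.04 over all genes. Arrays with the same replicate number deviated together at this day (r = 0.479 and 0.553), though weakly for replicate 3 (0.107), which matched another number better. The labels do not say that these numbers mark the experiments. With the replicate number as a block within the day Nodal (adjusted p = 0.0191) and Tdgf1 (0.0177) passed as well. That made 3 of 7 lower, where 7.20% of all genes were lower in that fit. Within the pairs the Tdgf1 difference was -1.49, -0.01 and -0.59, the Nodal difference -0.41, -0.12 and -0.49, and the Lefty1 difference -1.16, -0.29 and -1.11, so replicate pair 2 showed the smallest difference each time. Without treated day 8 replicate 2, an array left out after its values were seen, 6 of 7 members were lower: Lefty1 by 1.22 (4.18e-05), Tdgf1 by 1.17 (adjusted p = 0.000961), Lefty2 by 0.98 (0.00292), Gdf3 by 0.65 (0.0167), Nodal by 0.61 (0.00457) and Foxh1 by 0.47 (0.0247). In that comparison 9.52% of all genes were lower. The same-numbered untreated array was kept. It was the highest untreated one for Nodal (10.06), Lefty1 (8.62), Lefty2 (8.97) and Tdgf1 (12.55), and not for Gdf3 (9.05) or Foxh1 (10.85). The pair was not left out as a whole. With treated day 8 replicate 1 left out instead, no member passed, and the differences were -0.63 for Lefty1, -0.18 for Tdgf1, -0.17 for Lefty2, -0.14 for Gdf3, -0.16 for Nodal and -0.14 for Foxh1. The Lefty1 call was in turn lost without untreated day 8 replicate 2 (-0.77, adjusted p = 0.101), treated day 8 replicate 1 (-0.63, 0.162) or treated day 8 replicate 3 (-0.72, 0.102), and in a fit of the 2 day 8 groups alone (0.182).

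At day 12, after the drugs were withdrawn, all 7 differences were above 0 and 3 of 7 members passed as higher in treated EBs, where 7.49% of all genes were higher and 10.4% lower. Pmepa1 was higher by 0.67 ± 0.11, or 1.59-fold (10.44 ± 0.25 against 9.78 ± 0.20; adjusted p = 0.000185). Lefty1 was higher by 0.74 ± 0.22, or 1.67-fold (6.75 ± 0.11 against 6.01 ± 0.44; adjusted p = 0.02), and Foxh1 by 0.48 ± 0.15, or 1.39-fold (8.22 ± 0.16 against 7.75 ± 0.19; adjusted p = 0.0286). Tdgf1 differed by 0.77 ± 0.29 (adjusted p = 0.066), Nodal by 0.45 ± 0.17 (0.0812), Gdf3 by 0.48 ± 0.21 (0.123) and Lefty2 by 0.47 ± 0.27 (0.265). With the replicate number as a block within the day, Tdgf1 (adjusted p = 0.00601) and Nodal (0.00204) passed too, making 5 of 7, with 9.51% of all genes higher in that fit. The within-pair differences of Nodal were 0.41, 0.56 and 0.38 and those of Tdgf1 0.99, 0.78 and 0.55, above 0 in all 3 pairs for both. Gdf3 differed by -0.22 in pair 1 and by 0.90 and 0.75 in the others, and without untreated day 12 replicate 1 it passed at 0.70 (adjusted p = 0.0275). The Pmepa1 call held in all 15 alternatives, with adjusted p between 8.17e-06 and 0.0163. Among these, the filter by level and the mean of probe sets left its values as they were. The Lefty1 call was lost without untreated replicate 2 (0.56, adjusted p = 0.131), untreated replicate 3 (0.67, 0.0738), treated replicate 1 (0.69, 0.0735) or treated replicate 3 (0.72, 0.0696), and the Foxh1 call without untreated replicate 1 (0.50, 0.0532), untreated replicate 3 (0.37, 0.14), treated replicate 1 (0.49, 0.0669) or treated replicate 2 (0.39, 0.104). Even the higher treated level of Lefty1 was far under its day 4 level of 10.82 ± 0.05. The day 12 arrays of Lefty1 read 5.66 to 6.84 over both arms and those of Lefty2 6.01 to 6.84, under the lowest array median of 7.80. The untreated day 12 arrays of Nodal (7.62 to 7.77) and some of Foxh1 and Gdf3 also lay under that median. Whether signals that low exceed background is unknown.

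**Figure D2:**
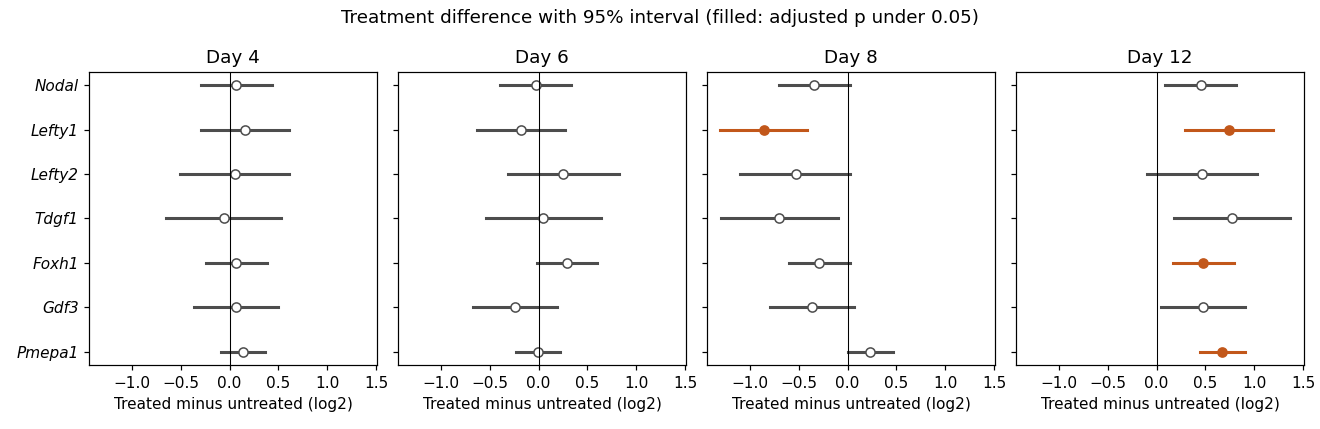
Difference of treated minus untreated EBs (log2) for the 7 genes at each day, with the 95% interval of the linear model and filled points where the adjusted p was under 0.05. At days 4 and 6 every interval includes 0, at day 8 only Lefty1 is filled (-0.85), and at day 12 all 7 points lie above 0 with Lefty1, Foxh1 and Pmepa1 filled.

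The size of the treatment difference was compared between days. From day 8 to day 12 it moved up by 1.59 ± 0.31 for Lefty1 (from -0.85 to 0.74; adjusted p = 0.00432), by 1.47 ± 0.40 for Tdgf1 (from -0.70 to 0.77; 0.0363) and by 0.77 ± 0.21 for Foxh1 (from -0.29 to 0.48; 0.0363). In all, 3 of 7 members passed, all upward, where 5.20% of all genes passed in either direction. The other members moved by 1.00 (Lefty2, adjusted p = 0.129), 0.83 (Gdf3, 0.0989), 0.79 (Nodal, 0.0647) and 0.44 (Pmepa1, 0.1). With the replicate block within days, Nodal (adjusted p = 0.00137), Lefty2 (0.0374) and Pmepa1 (0.037) passed too, 6 of 7 in all, with 9.88% of all genes passing in that fit. Without treated day 8 replicate 2 the count was also 6, with Pmepa1 the one that did not pass, and 9.56% of all genes passed. Among the 3 members that passed over all arrays, Tdgf1 passed at neither day by itself and Foxh1 at day 12 but not at day 8. The Lefty1 change held without any single array and was lost only in a fit of the 4 groups alone (adjusted p = 0.061). The Tdgf1 call held only without untreated day 8 replicate 1, treated day 8 replicate 2 or untreated day 12 replicate 2, and was lost without any 1 of the other 9 arrays (adjusted p 0.0511 to 0.0976). The Foxh1 call was lost without any 1 of 8 arrays (0.0539 to 0.105) and held without untreated day 8 replicate 2, treated day 8 replicate 2, untreated day 12 replicate 2 or treated day 12 replicate 3. From day 4 to 6 and from day 6 to 8 no member passed, with 0.0953% and 0.401% of all genes passing; before adjustment limma put no member under 0.05 in the first of these and 2 in the second, Lefty1 (-0.68) and Foxh1 (-0.58). Without treated day 8 replicate 2 the day 6 to 8 change passed for 4 members, Lefty1 (-1.04, adjusted p = 0.00848), Lefty2 (-1.23, 0.0142), Tdgf1 (-1.22, 0.0206) and Foxh1 (-0.76, 0.0231). These changes use the same arrays as the day 8 differences and are not separate evidence of them.

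The pluripotent cell markers differed between the arms on the same days as the members. The list mean was 10.39 to 10.60 on the untreated and 9.65 to 10.64 on the treated day 8 arrays, and 8.51 to 8.81 on the untreated and 9.04 to 9.32 on the treated day 12 arrays, so the arms overlapped at day 8 and stood apart at day 12. Pou5f1 (Oct4), the core factor of the undifferentiated state, read 11.49, 11.90 and 11.65 in untreated and 10.06, 11.72 and 10.79 in treated EBs at day 8, the same pattern over the arrays as Tdgf1. It was lower by 0.82 ± 0.24 at day 8 (adjusted p = 0.0344) and higher by 1.16 ± 0.24 at day 12 (adjusted p = 0.00168). The day 8 call of Pou5f1 was lost without untreated replicate 2 or 3 or treated replicate 1 or 3, where adjusted p reached 0.304. Nanog, another such factor, was higher by 1.20 ± 0.20 at day 12 (adjusted p = 0.000243). Of the 12 markers none was higher and 3 were lower at day 8 (all genes 4.86% and 4.08%), with a median difference of -0.37. The lower ones numbered 8 without treated day 8 replicate 2 (all genes 9.52%) and 5 with the replicate block (all genes 7.20%). At day 12 7 were higher and 2 lower (all genes 7.49% and 10.4%), with a median of 0.55. Those lower were Sox2, which neural progenitors also express (-0.97, adjusted p = 0.00407), and Sall4 (-0.33, 0.0251). The change of the treatment difference from day 8 to 12 passed for 6 of the 12, all upward, where 5.20% of all genes passed in either direction. The part of undifferentiated cells in the members' differences was not tested.

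**Figure D3:**
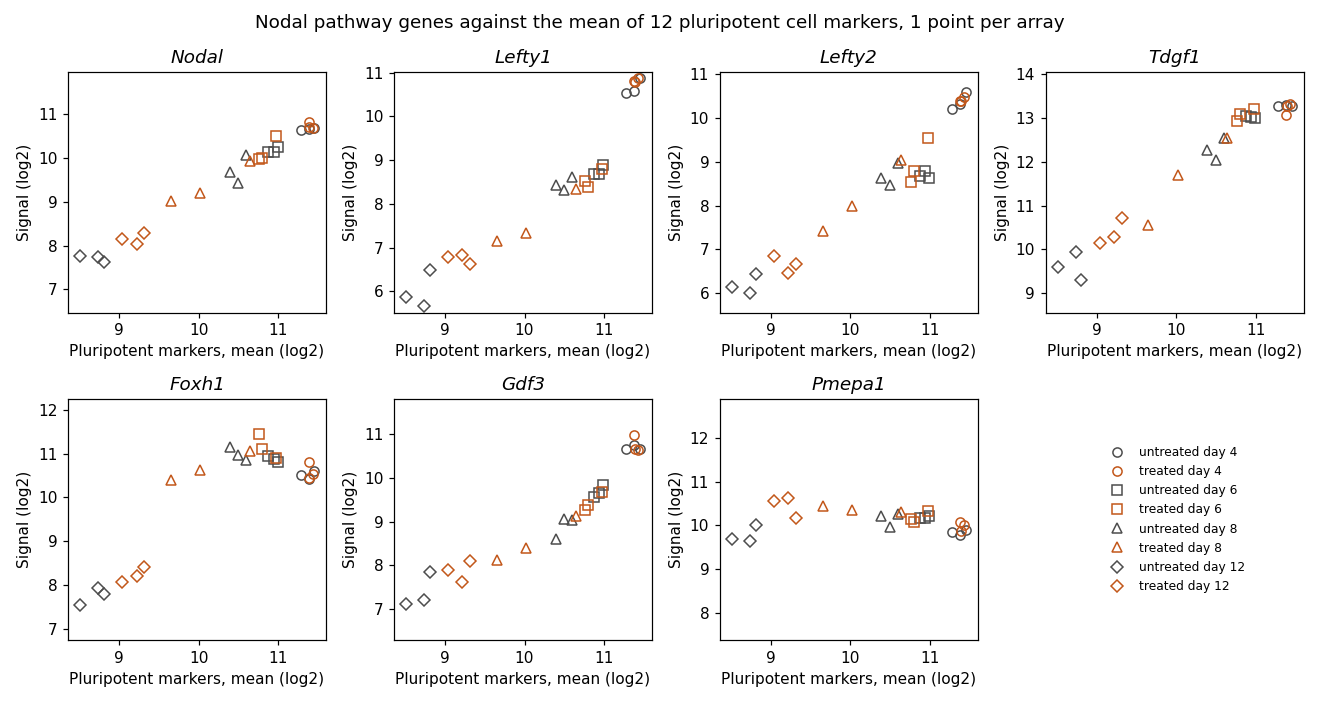
Log2 signal of each of the 7 genes against the mean log2 signal of 12 pluripotent cell markers, with 1 point per array, shapes for the day and colour for the arm. The marker mean runs from 8.51 to 11.45; Nodal, Lefty1, Lefty2, Tdgf1 and Gdf3 rise along it, Foxh1 is high on all arrays up to day 8, and Pmepa1 keeps near 10 throughout.

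Among themselves, the 6 members other than Pmepa1 had Pearson correlations of 0.69 to 0.99 over the 8 group means (15 pairs), which share the time course. For the deviations of the 24 arrays from their group means, the correlations of those pairs were 0.18 to 0.86. Without the 3 treated day 8 arrays they were -0.49 to 0.71. The deviations of Tdgf1 and Pou5f1 correlated at 0.75 over the 24 arrays and at -0.07 without those 3. Pmepa1 correlated with the other members between -0.30 and 0.14 over the group means. The genes most like each member over the 8 group means were sought among 3378 genes whose group means spanned at least 1 on the log2 scale. For Tdgf1 they were Pou5f1 and 1700019D03Rik (r = 0.996 each) and Sec14l4 (0.995). For Nodal they were Ccnb1ip1 (0.998), Castor1 (0.997) and Esrrb (0.996), an orphan receptor of the naive pluripotent network. Lefty1 was most like Klf2, another naive pluripotency factor (0.996), Mif4gd (0.995) and Hsf2bp (0.994), and Lefty2 most like Ncoa3 (0.997), Mreg (0.996) and Zfp42 (Rex1), a marker of undifferentiated cells (0.995). Gdf3 was most like Manba and Tdrd12 (0.998 each) and Hsf2bp (0.997). Foxh1, with its late fall, was most like Lsr (0.990), Bex1 (0.985) and Sgk3 (0.981). For Pmepa1 the closest were P2rx4 (0.934), S100a6 (0.921) and Me1 (0.904). Its own group means spanned 0.67, under the limit of 1, so genes that moved as little as Pmepa1 were not searched. Its lower correlations can therefore not be set against those of the other members.

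Of 31 other genes of the pathway, 29 had a probe set of their own and the others are not analysed here. None passed at day 4. At day 6 only Cfc1 passed, the other EGF-CFC coreceptor (Cryptic), which was higher by 1.13 ± 0.26 or 2.19-fold in treated EBs (9.95 ± 0.36 against 8.82 ± 0.65; adjusted p = 0.0228). Tdgf1 differed by 0.05 ± 0.29 at that day. With the replicate block Smad7 passed as well (0.41, adjusted p = 0.0466). The Cfc1 call was lost without untreated day 6 replicate 2 (0.76, adjusted p = 0.225), treated day 6 replicate 1 (1.02, 0.128) or treated day 6 replicate 3 (1.03, 0.114). At day 8 the Cfc1 difference was -0.54, and the change of -1.67 from day 6 to 8 passed narrowly (adjusted p = 0.0494), not without any 1 of 8 of the 12 arrays (up to 0.186); it held without untreated day 6 replicate 1, treated day 6 replicate 2, untreated day 8 replicate 1 or treated day 8 replicate 2. With the replicate block 4 of the 29 moved down in that step, with Eomes (-1.21, adjusted p = 0.0138), Lhx1 (-1.61, 0.0311) and Mixl1 (-1.25, 0.0472) beside Cfc1.

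At day 8, 4 of the 29 were higher and 4 lower in treated EBs (all genes 4.86% and 4.08%), with a median of -0.10. Cer1 (Cerberus), a secreted inhibitor that binds Nodal, had the largest difference of the list: 10.26 ± 0.86 in untreated against 7.81 ± 1.01 in treated EBs, or 5.45-fold lower (-2.45 ± 0.41, adjusted p = 0.00144). Its untreated arrays ran from 9.29 to 10.92 and its treated arrays from 6.80 to 8.81, without overlap, and the call held without any single array. Hhex (-0.57 ± 0.12, adjusted p = 0.00612) and Lhx1 (-1.24 ± 0.37, 0.0399), transcription factors of the anterior endoderm and mesendoderm, were lower, as was Tgif1, a corepressor of Smads (-0.41 ± 0.09, 0.00894). Those higher were Inhba, which encodes an activin subunit (0.54 ± 0.14, adjusted p = 0.0176), the type I receptor Acvr1b (ALK4; 0.32 ± 0.09, 0.0288), Smad2 (0.29 ± 0.08, 0.0213) and the inhibitory Smad7 (0.51 ± 0.11, 0.007). All 7 measured target transcription factors were below 0 at day 8, from -0.03 to -1.24 with a median of -0.57, and Lhx1 and Hhex were the ones to pass. With the replicate block within the day the counts of the 29 were 6 higher and 7 lower (all genes 6.95% and 7.20%), the added genes being Furin (0.33, adjusted p = 0.0229), Smad3 (0.24, 0.0468), Acvr2b (-0.25, 0.0237), Fst, the activin-binding follistatin (-0.76, 0.00893), and Eomes, a mesendoderm factor (-0.91, 0.00286). They were 6 higher and 12 lower without treated day 8 replicate 2 (all genes 8.87% and 9.52%). Of the 8 calls, those of Cer1 and Hhex held without any single array; the others were lost without treated replicate 1 (Inhba 0.50, Acvr1b 0.27, Smad2 0.23, Tgif1 -0.28, Lhx1 -0.62), treated replicate 3 (Inhba 0.53, Acvr1b 0.34, Smad2 0.28, Lhx1 -1.33), untreated replicate 2 (Acvr1b 0.28, Smad2 0.24, Tgif1 -0.37, Lhx1 -1.16, Smad7 0.40), untreated replicate 3 (Inhba 0.39, Lhx1 -1.03) or untreated replicate 1 (Acvr1b 0.32).

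At day 12, 2 of the 29 were higher and 2 lower, where 7.49% of all genes were higher and 10.4% lower, so neither count stood above that background. Furin, a convertase that cleaves the Nodal precursor, was higher by 0.48 ± 0.11 (adjusted p = 0.00397), and Smad7 by 0.36 ± 0.11 (0.0273). The type II receptor Acvr2b was lower by 0.46 ± 0.08 (adjusted p = 0.000314), and Foxa2, a node and endoderm factor that also marks the floor plate, was 2-fold lower (8.35 ± 0.30 against 9.35 ± 0.15; adjusted p = 0.000383). The Furin, Acvr2b and Foxa2 calls held in all 15 alternatives. The filter by level and the mean of probe sets left the values of Furin and Acvr2b as they were. The Smad7 call was lost without untreated replicate 1 (0.23, adjusted p = 0.179), untreated replicate 3 (0.37, 0.0551), treated replicate 1 (0.34, 0.093) or treated replicate 2 (0.33, 0.0653). The treatment difference of Cer1 moved up by 2.78 ± 0.57 from day 8 to 12 (adjusted p = 0.00731) and that of Hhex by 0.75 ± 0.17 (0.0146), the only 2 of the 29 to pass that test. With the replicate block Tgif1 passed at day 12 as well (-0.22, adjusted p = 0.0384). By day 12 Cer1 was near its day 4 signal in both arms (7.07 ± 0.40 untreated and 7.40 ± 0.15 treated, against 7.20 ± 0.11 and 7.03 ± 0.27).

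**Figure D4:**
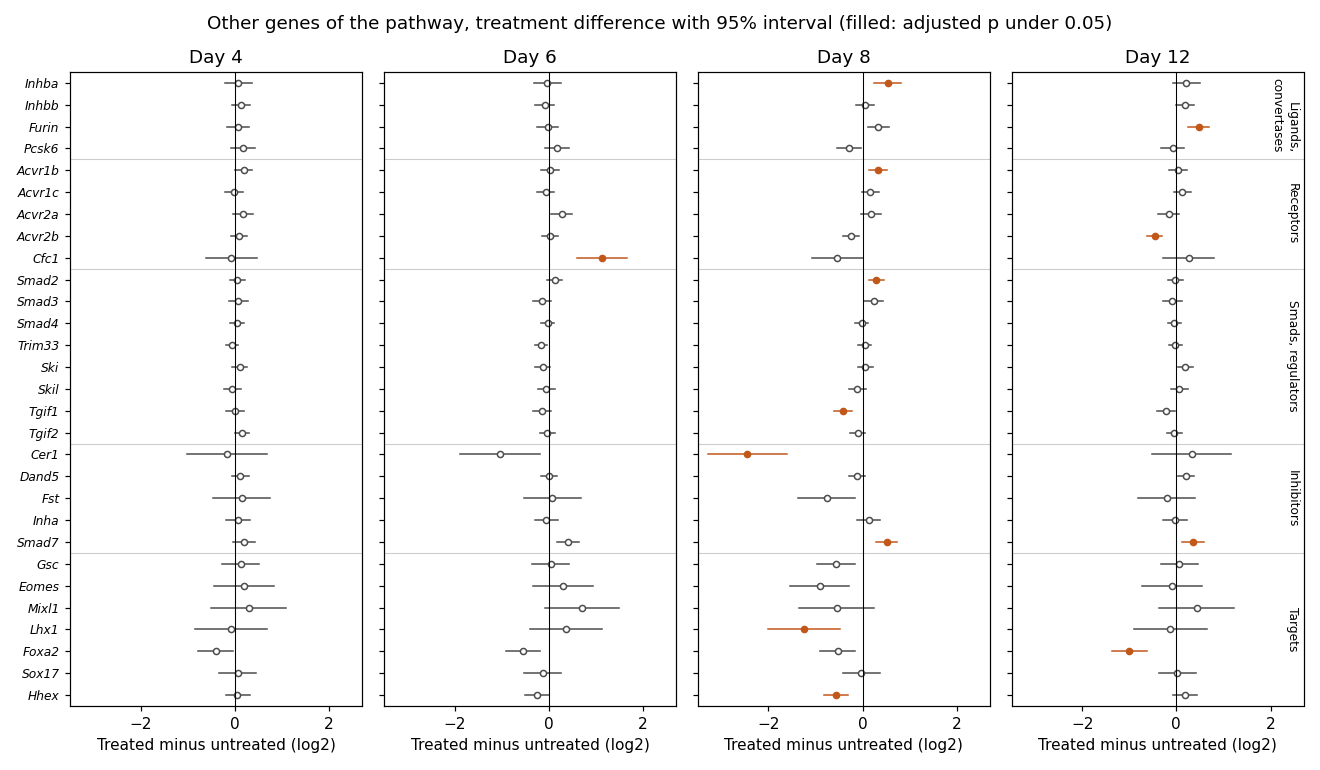
Difference of treated minus untreated EBs (log2) for 29 other genes of the pathway at each day, with 95% intervals, grouped by role and filled where the adjusted p was under 0.05. No gene is filled at day 4 and only Cfc1 at day 6; at day 8 the lower filled genes are Tgif1, Cer1, Lhx1 and Hhex, with Cer1 farthest from 0 at -2.45.

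The course of the target transcription factors ran against that of the ligands in the first step. All 7 measured rose from day 4 to 6 in both arms (all genes 21.1% in untreated and 19.1% in treated EBs) while Nodal, Gdf3 and both Lefty genes fell. Mixl1, a mesendoderm factor, rose 12.1-fold in untreated EBs (3.60 ± 0.38, adjusted p = 3.5e-07) and 16.1-fold in treated ones (4.01 ± 0.38, adjusted p = 6.89e-08). Lhx1 rose by 2.82 and 3.28 and Eomes by 1.32 and 1.43. From day 8 to 12, 6 of the 7 fell in untreated EBs and 4 in treated ones (3 without treated day 8 replicate 2), where 19.9% and 16.7% of all genes fell (13.9% without that array). Mixl1 fell 14.4-fold in the untreated arm (adjusted p = 5.28e-08) and Eomes 8.28-fold (6.08e-08), beside the 9.46-fold fall of Foxh1 in the same step.

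Markers of other cell types also differed between the arms, and their part in the members' differences was not tested. At day 6, where no member passed, all 8 lateral mesoderm markers were higher in treated EBs (median 1.83; list means 8.12 to 8.97 untreated and 9.99 to 11.04 treated) and 5 of 6 genes of the BMP response were higher (median 0.92). The streak mesoderm markers had 3 of 7 higher at day 6 and none at day 8 or 12. With the replicate block 5 of the streak mesoderm markers passed at day 6, where 3.62% of all genes passed in that fit. At day 8, beside the lower Lefty1, 5 of 9 neural markers were lower (list means 7.67 to 7.85 untreated and 7.33 to 7.40 treated). The neural list mean was 7.63 to 7.70 on the day 4 arrays, so the untreated day 8 arrays were at or little above that level. At day 8, 3 of 7 primed epiblast markers were also lower (9.70 to 10.25 and 8.69 to 9.76), 6 with the block. Of the visceral endoderm markers 5 of 8 were higher at that day (8.27 to 9.00 and 9.13 to 9.48). At day 12, beside the higher Pmepa1, Lefty1 and Foxh1, 8 of 9 neural markers were lower (9.20 to 9.63 and 8.28 to 8.78), and 5 of 8 visceral endoderm (8.57 to 9.08 and 9.50 to 9.78) and 4 of 8 lateral mesoderm markers (9.93 to 9.99 and 10.65 to 10.86) were higher. Of the 7 primed epiblast markers none was higher and 1 was lower at day 12, with a median difference of -0.04. At day 8 the lateral mesoderm markers had 3 of 8 higher, 6 with the block. Without treated day 8 replicate 2 the day 8 counts were 5 of 9 neural and 5 of 7 primed epiblast markers lower and 5 of 8 visceral endoderm and 5 of 8 lateral mesoderm markers higher, where 9.52% of all genes were lower and 8.87% higher. Of 5 blood markers none passed at any day; with the block 2 were higher and 1 lower at day 8 and 1 was higher at day 12.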

How the data were processed

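Arrays of the Affymetrix Mouse Gene ST 1.0 type measured total RNA of 24 cultures. RMA in Affymetrix Expression Console produced the deposited log2 values, per the submitters' processing notes; tool versions: not given in the sources used here. Since no label states it, the log2 scale was taken from the range of the values (3.32 to 14.53). Without detection calls, whether low signals exceed background is unknown. Of 35556 probe sets, 21789 had 1 gene symbol, 1621 several and 12146 none; of the first, 21698 matched the GRCm38.p6 gene table by Entrez identifier. The probe set with the highest mean stood for a gene, which left 19938 genes.

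Differences were tested in R 4.3.3 with limma 3.58.1 (1 mean per group over 24 arrays, 16 residual degrees of freedom, eBayes), with Benjamini-Hochberg adjustment over all genes in each of 13 contrasts and a threshold of 0.05. The code was tested on simulated data. Alternatives left out each array in turn, fitted the compared groups alone, took the replicate number as a block (within a day or across days), weighted the arrays, averaged the probe sets of a gene, let the prior follow intensity, kept genes over the 40th percentile of level, or rescaled the arrays by quantiles or by medians. The labels speak of 3 independent experiments without saying that the replicate numbers mark them; same-numbered arrays deviated together at day 6 (r = 0.297, 0.138 and 0.210), day 8 (0.479, 0.553 and 0.107) and day 12 (0.118, 0.341 and 0.253) and not at day 4 (-0.014, 0.191 and -0.053). Pairs were accepted for days 6, 8 and 12 and not for day 4, with a minimum r of 0.1, just under the 0.107 of day 8 replicate 3. At days 8 and 12 treated replicate 3 deviated more like an untreated array of another number than like its own.

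The members and gene lists were chosen with earlier results of these data known. Named are the members, other pathway genes that passed or moved most, Pou5f1, Nanog, and the 3 genes most like each member; Sox2 and Sall4 were named after their values were seen. Treatment differences had a median SE of 0.092 over all genes, and the SE of every member was larger. With 3 arrays a group their number limits precision. Tables used pandas 2.3.3 and numpy 2.4.6 under Python 3.11.15, and plots matplotlib 3.10.9.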

Additional observations from a re-analysis of the deposited data

Results flagged for a closer look

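For 3 of the 7 genes the treatment difference itself differed between days 8 and 12, by limma's test of the interaction. It moved up by 1.59 for Lefty1 (adjusted p = 0.00432), by 1.47 for Tdgf1 (adjusted p = 0.0363) and by 0.77 for Foxh1 (adjusted p = 0.0363). Lefty1 passed at both days, Tdgf1 at neither and Foxh1 at day 12 but not at day 8. The Lefty1 signals at day 12 were low, at 5.66 to 6.84 over both arms. Within the replicate pairs the Lefty1 difference was -1.16, -0.29 and -1.11 at day 8 and 0.34, 0.97 and 0.91 at day 12. That of Foxh1 was -0.56, 0.21 and -0.53 at day 8 and 0.41, 0.48 and 0.54 at day 12. With single arrays left out the change ran from 1.37 to 1.96 for Lefty1, from 0.95 to 1.94 for Tdgf1 and from 0.62 to 0.95 for Foxh1. The highest values were without treated day 8 replicate 2, the array farthest from its group, and the lowest without treated day 8 replicate 1. The Lefty1 call held in each case, while that of Tdgf1 was lost without any 1 of 9 of the 12 arrays and that of Foxh1 without any 1 of 8.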

How the results depend on the processing

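Over the 7 genes and 13 contrasts, the filter at the 40th percentile and the mean of probe sets changed no call. Neither could change a difference, since each member had 1 probe set and lay above that percentile. The intensity trend lost 3 calls. The number of members that passed moved as follows, with the share of all genes that passed in the same fit in brackets. At day 8 it was 6 with array weights (25.9%), 3 with the replicate block within day (14.2%) and 0 with the compared groups alone (0%), beside 1 (8.93%). At day 12 it was 5 with array weights (23.9%), 5 with the replicate block within day (22.1%), 5 with the replicate block across days (19.8%) and 6 with the compared groups alone (12.3%), beside 3 (17.9%). For untreated day 6 to 8 it was 1 with quantile normalization (29.5%) and 1 with the intensity trend (35.7%), beside 3 (36.1%), and for treated day 8 to 12 it was 3 with the compared groups alone (23.3%), beside 6 (33.2%). For the change of the treatment difference it was 2 with array weights (6.97%) from day 6 to 8, beside 0 (0.401%), and from day 8 to 12 it was 7 with array weights (16.1%), 6 with the replicate block within day (9.88%) and 0 with the compared groups alone (1.12%), beside 3 (5.20%). The block changed no other count of members by more than 1.5 times, and it ended no call of a member. Directions that reversed were all of differences that did not pass: at day 4 Lefty2 (-0.001 with quantile normalization) and Gdf3 (-0.05 with array weights); for untreated day 6 to 8 Lefty2 (0.04 with quantile normalization, 0.03 with array weights) and Pmepa1 (0.07 with quantile normalization); and for treated day 8 to 12 Pmepa1 (-0.03 with median centring). The cause was not tested.

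With single arrays left out, the count of members ran from 0 to 6 at day 8, 1 to 3 at day 12, 3 to 4 for untreated day 4 to 6, 1 to 3 for untreated day 6 to 8, 0 to 4 for the change from day 6 to 8 and 1 to 6 for the change from day 8 to 12. The counts among all 19938 genes moved too. Over all alternatives they ran from 0 to 2140 higher and 0 to 3018 lower at day 8. At day 12 they ran from 919 to 2119 and 1240 to 2643. Untreated counts ran from 3349 to 5576 and 1994 to 6884 (day 4 to 6), and from 1897 to 4913 and 2543 to 4506 (day 6 to 8). Without treated day 8 replicate 2, 6 members passed at day 8 (18.4% of all genes). The changes to day 8 and day 12 then had 4 (5.53%) and 6 (9.56%). Values that crossed 0 ran at day 4 from -0.04 to 0.16 (Lefty2), -0.11 to 0.01 (Tdgf1), -0.03 to 0.15 (Foxh1) and -0.03 to 0.13 (Gdf3), and at day 6 from -0.20 to 0.07 (Nodal), -0.04 to 0.46 (Lefty2), -0.01 to 0.12 (Tdgf1) and -0.08 to 0.05 (Pmepa1). They ran from -0.15 to 0.10 (Lefty2) and -0.09 to 0.05 (Pmepa1) for untreated day 6 to 8, from -0.02 to 0.21 (Pmepa1) for treated day 8 to 12, from -0.09 to 0.42 (Lefty2) for the change from day 4 to 6 and from -0.41 to 0.10 (Gdf3) for that from day 6 to 8. Median centring shifted the median of all genes to -0.12 for untreated and treated day 4 to 6 and to -0.13 for untreated day 8 to 12. Without replication beyond 3 arrays a group, differences near the median SE of 0.092 over all genes could not be told from 0. The SE of every member was larger than that, and the compared groups alone leave few residual degrees of freedom.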
